A study of Mus musculus with 32 samples.

Results

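Transcript levels were compared between mouse embryonic stem cells that overexpressed a mutated CTCF and cells that overexpressed wild-type CTCF, both with the auxin indole-3-acetic acid (IAA) present. All cells were of the E14 line and carried CTCF AID, an auxin-inducible degron on the endogenous CTCF protein through which IAA triggers its destruction. The comparison uses 4 of the 32 libraries of the series: 2 libraries titled as mutated CTCF with IAA and 2 titled as wild-type CTCF with IAA. Its members are all 13938 of 14970 listed genes whose mean normalised count over the 12 libraries of the overexpression table was at least 10, and 1032 genes fell under that mean. At the edge of this filter, Rhd had a mean just above 10 with wild-type values of 5.95 and 5.74 and mutated values of 10.8 and 24.0, and Gm38056, just outside, had a mean of 9.99 with wild-type values of 7.51 and 10.7 and mutated values of 13.8 and 16.3.

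The other 8 libraries of the table came from the same degron cells with an overexpression control, wild-type CTCF or mutated CTCF without IAA, and from the control with IAA, with 2 libraries per group. IAA was given at 500 uM for 12 h. The growth protocol names a serum-free medium with leukemia inhibitory factor and the kinase inhibitors PD0325901 and CHIR99021 for every sample. The labels do not name the mutation in CTCF, and do not say whether a line was a single clone or whether libraries came from separate cultures. The p-values therefore measure only the spread between these libraries, which may be technical. In 4 libraries the treatment label contradicts the title: the wild-type pair used here has a title with IAA and a label without it, and the mutated pair titled without IAA has a label of 12 h of IAA. Groups follow the titles, since by the treatment label no wild-type library was treated and the comparison could not be made.

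CTCF is a zinc finger protein that binds DNA at many sites and halts the cohesin complex as it extrudes chromatin loops, so that pairs of bound sites become loop anchors. It also binds close to many gene starts and acts there on transcription. When the endogenous protein is degraded, an added CTCF that lacks the degron can take its place. The mutated and wild-type versions were in different cells, so effects of the mutation and other differences between these cells cannot be told apart.

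Library totals of the normalised counts lay between 19073890 and 19546135 in the 12 libraries, and replicate libraries correlated across genes with r of 0.985 to 0.989 on the log2 scale. The share of the total taken by mitochondrially encoded genes was 2.64% and 2.62% with wild-type CTCF and IAA and 2.48% and 2.45% with mutated CTCF and IAA. The summed level of 10 stem cell markers was 131683 to 132296 in the wild-type libraries and 128882 to 129521 in the mutated ones. Markers of other lineages were low by comparison. The summed neural markers were 3208 to 3392 and 3943 to 4119, mostly Tubb3 and Nes. Those of trophoblast were 259.5 to 279 and 316 to 328, those of fibroblasts 81.5 to 127 and 103 to 110.1, and those of mesoderm 37.7 to 53.5 and 34.2 to 44.0. Primitive endoderm markers were 67.4 to 78.8 and 169 to 201, with Sox17 and Sox7 not among the listed genes. The gap lay in Pdgfra, and Gata4 was at 21.9 and 15.9 against 17.5 and 17.9. In bulk RNA, fewer cells of a type and less RNA per cell cannot be told apart.

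The Ctcf transcript itself did not separate the groups. Ctcf (ENSMUSG00000005698.15, chromosome 8, 105636568 to 105682922, plus strand, GRCm38) was at 11630.5 and 11077 normalised counts with wild-type CTCF and IAA and at 11758 and 11590.3 with mutated CTCF and IAA. Without IAA it was at 9275 and 9481 with wild-type CTCF and at 9589 and 9712 with mutated CTCF. Control cells had 4134 and 4332, and 5185 and 5098 with IAA. The libraries with either added CTCF lay above every control library. The log2 difference of mutated minus wild-type with IAA was 0.04 (SE 0.03), with an adjusted p of 0.605 in limma, a linear model fitted here on log2(value + 1) across all genes. The table has 1 row for Ctcf, which does not tell added from endogenous transcripts, and the degron acts on protein, so this row does not measure degradation.

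Cyp1a1, a detoxifying enzyme and a target of the aryl hydrocarbon receptor, followed the titles. Its normalised counts were 109 and 105 in control cells and 883 and 833 in control cells with IAA. They were 107 and 94.8 with wild-type CTCF, 833 and 946 with wild-type CTCF and IAA, 142 and 138 with mutated CTCF, and 1553 and 1429 with mutated CTCF and IAA. All 6 libraries titled with IAA were above all 6 titled without it. Between the treated groups Cyp1a1 was higher with mutated CTCF, by 0.75 on the log2 scale (SE 0.10, limma adjusted p 0.00429).

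**Figure D1:**
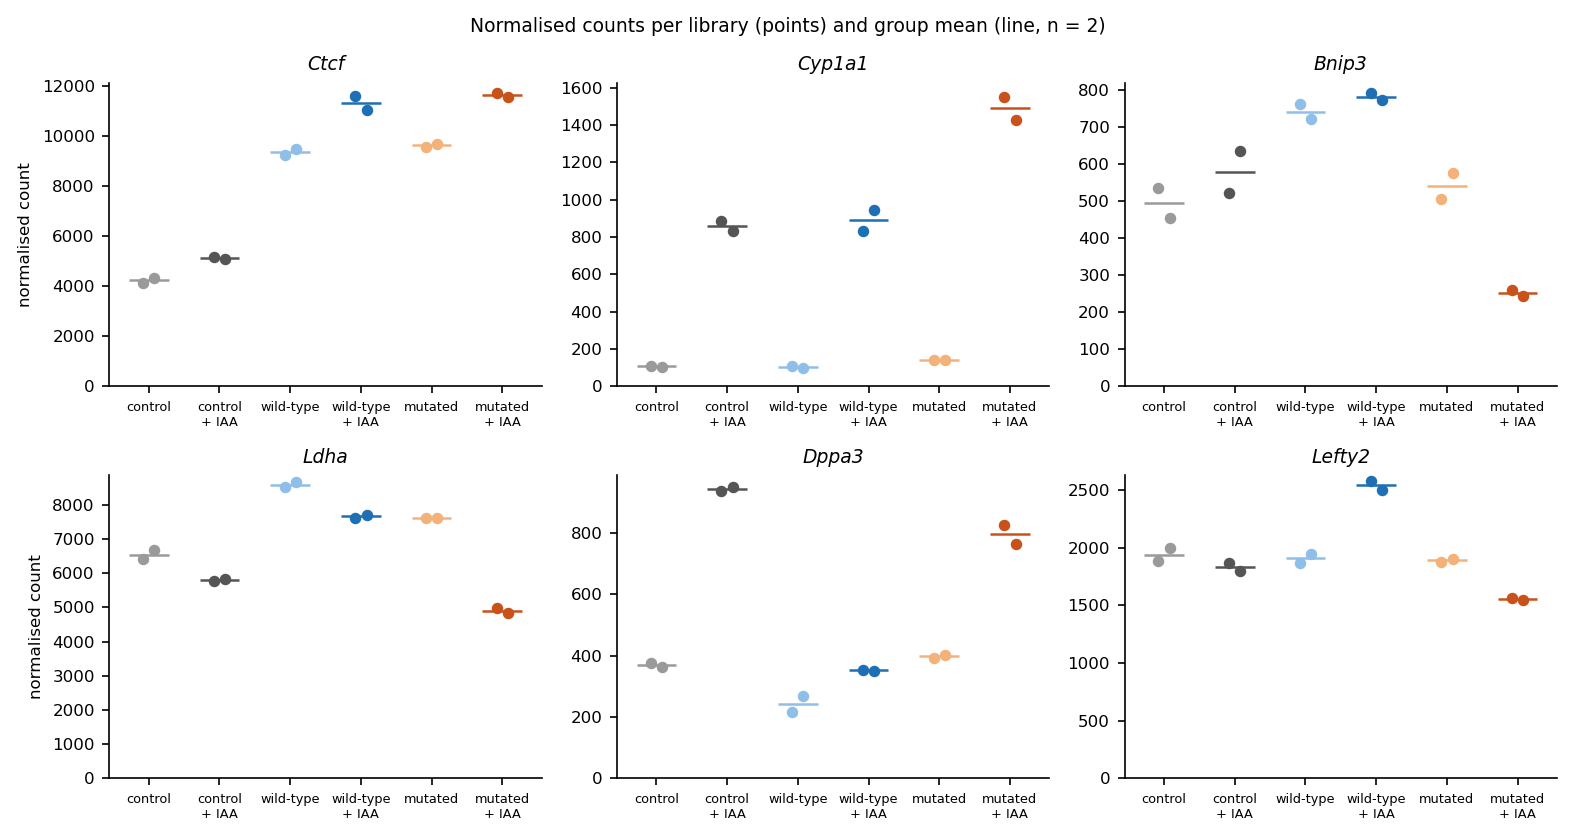
Normalised counts (vertical axis) of 6 genes in the 12 libraries of the overexpression table, by group (horizontal axis); points are libraries and lines are group means (n = 2). Ctcf is alike with wild-type and mutated CTCF and IAA, whereas Bnip3 is at 261 and 245 and Dppa3 at 826 and 765 with mutated CTCF and IAA.

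In the contrast of mutated minus wild-type CTCF under IAA, limma called 314 of the 13938 genes (2.25%) at a Benjamini-Hochberg adjusted p under 0.05. Of these, 150 were higher (1.08%) and 164 lower (1.18%) with mutated CTCF. Most differences were small: the median size among called genes was 0.31 on the log2 scale, and 29 genes were both called and at least 2-fold different, 7 higher and 22 lower. The median over all genes tested was 0.002. The values of the 2 groups did not overlap for all 314 called genes, and for 6688 of all genes tested (48%). With 2 libraries against 2, an exact permutation test of a single gene cannot give a two-sided p below 0.333. Leaving out a library lowered the count of called genes. Of 90 named genes called, 20 kept the call under every alternative fit that tested them, setting aside that with only the compared groups.

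Genes of the response to low oxygen and of glycolysis made up the largest group among the lists examined. In cells with sufficient oxygen, prolyl hydroxylases mark the alpha subunit of the hypoxia-inducible factor for destruction. When that subunit is stable, the factor binds a short DNA sequence and raises genes for glucose uptake, glycolysis, lactate export, vessel growth and removal of mitochondria. Of 38 genes in the list 36 were tested, and 21 were called lower with mutated CTCF and 0 higher (58.3% called, against 2.25% of all genes). The median log2 difference of the list was -0.30, against 0.002 over all genes, and 33 of 36 were negative. The lists and their members were chosen with earlier results of these data known, so these shares describe the lists and support nothing more.

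Bnip3 (ENSMUSG00000078566.8, chromosome 7, 138890836 to 138909519, minus strand), a receptor for the removal of mitochondria, was at 792 and 774 normalised counts with wild-type CTCF and IAA and at 261 and 245 with mutated CTCF and IAA, 32.3% of the wild-type level. Slc16a3 (ENSMUSG00000025161.16, chromosome 11, 120948480 to 120960868, plus strand), a lactate exporter, was at 365 and 361 against 135 and 120.1. Ldha (ENSMUSG00000063229.15, chromosome 7, 46841475 to 46855627, plus strand), a subunit of lactate dehydrogenase, was at 7619 and 7704 against 4978 and 4835. In all 3 genes both mutated libraries lay below both wild-type libraries with IAA and below both control libraries with IAA. The log2 differences were -1.63 for Bnip3 (SE 0.11, limma adjusted p 8.09e-05), -1.50 for Slc16a3 (SE 0.13, limma adjusted p 0.000393) and -0.64 for Ldha (SE 0.03, limma adjusted p 3.72e-06). Bnip3 overlaps Gm45507 on the opposite strand, and strand use in counting is not given in the sources used here, so reads of the pair could be mixed.

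The promoters of these genes were searched for ACGTG, the core of the sequence that the hypoxia-inducible factor binds, on both strands in the 250 bases before the start that RefSeq gives on GRCm38.p6. The motif was chosen after the values were seen. The stretches of 80 bases below show it in 6 of the genes called lower, 5′ to 3′ on the gene's own strand, with every match in capitals. A run CACGTG reads the same on both strands and holds 2 overlapping matches.
Bnip3, chr7:138909540-138909619, minus strand: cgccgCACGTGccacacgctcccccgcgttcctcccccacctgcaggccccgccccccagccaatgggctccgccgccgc
Slc16a3, chr11:120948987-120949066, plus strand: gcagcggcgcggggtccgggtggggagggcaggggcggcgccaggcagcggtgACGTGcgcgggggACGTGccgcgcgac
Ldha, chr7:46845724-46845803, plus strand: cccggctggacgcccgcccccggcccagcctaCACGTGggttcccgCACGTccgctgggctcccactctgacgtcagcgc
Pgk1, chrX:106186945-106187024, plus strand: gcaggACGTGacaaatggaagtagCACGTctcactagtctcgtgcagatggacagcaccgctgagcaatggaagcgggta
P4ha1, chr10:59323216-59323295, plus strand: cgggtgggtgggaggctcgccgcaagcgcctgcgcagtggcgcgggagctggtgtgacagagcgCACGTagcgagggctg
Pgam1, chr19:41911752-41911831, plus strand: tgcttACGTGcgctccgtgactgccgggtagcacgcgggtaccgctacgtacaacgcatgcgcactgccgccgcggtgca

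In the RefSeq table, 18 of the 21 called genes had a promoter, and 13 of these held the motif (72.2%). Among list genes that were not called, 5 of 14 promoters held it (35.7%). Over all 32851 promoters of the table the share was 5444 (16.6%), and over genes called higher with mutated CTCF it was 39 of 120 (32.5%). For the genes called lower as a whole the share was not taken, since only 121 of 164 had a promoter in the table. The same holds for all genes tested, so the share over all promoters includes genes that are not expressed here. The sets are counted by gene and the share over the table by promoter. A gene can have several promoters, and so more places for a match, which means that these shares are not like for like. A match is a run of letters, not a measured binding site.

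Among the genes of sugar uptake and glycolysis, differences were smaller than that of Bnip3 but stood on high levels. Pgk1, phosphoglycerate kinase, was at 9584 and 9574 normalised counts with wild-type CTCF and IAA and at 7248 and 7299.8 with mutated CTCF and IAA (log2 difference -0.40, SE 0.02, limma adjusted p 5.00e-05). Slc2a1, a glucose transporter, was at 3065 and 2908 against 2165 and 2154 (log2 difference -0.47). Pfkl, the liver-type phosphofructokinase, was at 1335 and 1477 against 891 and 845 (log2 difference -0.69). In each of these genes both mutated libraries lay below both wild-type ones. The steps of glycolysis were touched along most of its length. Called lower were also the phosphofructokinase Pfkp (-0.26), the aldolases Aldoc (-0.90) and Aldoa (-0.28), the triose phosphate isomerase Tpi1 (-0.27), the phosphoglycerate mutase Pgam1 (-0.14), the enolase Eno1 (-0.19), the pyruvate kinase Pkm (-0.21) and the transporter Slc2a3 (-0.18). Gapdh had a log2 difference of -0.03, with an adjusted p of 0.459 in limma. Counts of Eno1 could be shared with its near-identical copy Eno1b, which had a log2 difference of -0.18. Aldoa, Tpi1, Pfkp and Pkm overlap other annotated genes.

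The regulatory and secreted members of the list also differed. Vegfa, the vessel growth factor, was at 1067 and 1213 normalised counts with wild-type CTCF and IAA and at 671 and 581 with mutated CTCF and IAA (log2 difference -0.86, SE 0.09, limma adjusted p 0.000721). The oxygen-sensing prolyl hydroxylases Egln3 and Egln1, themselves targets of the factor, had log2 differences of -1.13 and -0.56. Egln3 was at 154 and 127 against 57.7 and 69.0. Ndrg1 (-0.73), the collagen prolyl hydroxylase subunit P4ha1 (-0.68), the mTORC1 inhibitor Ddit4 (-0.43) and the oxidase Ero1l of the endoplasmic reticulum (-0.33) completed the called genes. Of the 15 members not called, 12 had negative differences. P4ha2, the related hydroxylase subunit, was at 29.1 and 34.9 against 12.6 and 14.3, a log2 difference of -1.19 with a limma adjusted p of 0.0826. Ak4, a mitochondrial adenylate kinase, had the highest value, 0.20, with a limma adjusted p of 0.0532, and was called higher when genes with a mean under 100 were left out, with robust eBayes or when the fit held the compared groups alone.

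A further 4 genes known from the hypoxia response, not in the list and chosen after their values were seen, were also called lower. Loxl2, a lysyl oxidase, was at 38.3 and 49.4 with wild-type CTCF and IAA and at 6.22 and 7.21 with mutated CTCF and IAA (log2 difference -2.53). Ndufa4l2, a mitochondrial protein, was at 55.4 and 70.2 against 22.05 and 21.5 (log2 difference -1.48). Bhlhe40, a transcriptional repressor, was at 398 and 446 against 214.5 and 227, and Plod2, a collagen lysyl hydroxylase, was at 827 and 856 against 641 and 622. None of the factor's subunits looked up was called. Epas1, an alternative alpha subunit, was at 225 and 229 with wild-type CTCF and IAA and at 183 and 169 with mutated CTCF and IAA, values that do not overlap (log2 difference -0.37, SE 0.12, limma adjusted p 0.165). Hif1a had a log2 difference of 0.02 (limma adjusted p 0.863), Arnt 0.03 (limma adjusted p 0.785) and Vhl, which carries the marked subunit to destruction, 0.10 (limma adjusted p 0.637).

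Control cells with IAA lay between the groups for many of these genes. Of the 21 called genes, 13 were called higher with wild-type CTCF and IAA than in control cells with IAA, and 13 were called lower with mutated CTCF and IAA than in those control cells. For 5 genes both held. The 21 genes were chosen as lower with mutated than with wild-type CTCF in the same libraries, which favours these directions, and the comparisons share the control libraries. The counts are therefore a description and support nothing. Among all genes, 6.26% were called between wild-type CTCF and control with IAA and 6.5% between mutated CTCF and control with IAA. Bnip3 was at 522 and 636 in control cells with IAA and Ldha at 5761 and 5842, in both genes above the mutated and below the wild-type libraries. Slc16a3 was at 333 and 359, and Egln1 at 415 and 406 in the controls against 395 and 390 with wild-type CTCF and 277 and 256 with mutated CTCF. In these genes the mutated libraries stood apart from the other groups.

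**Figure D2:**
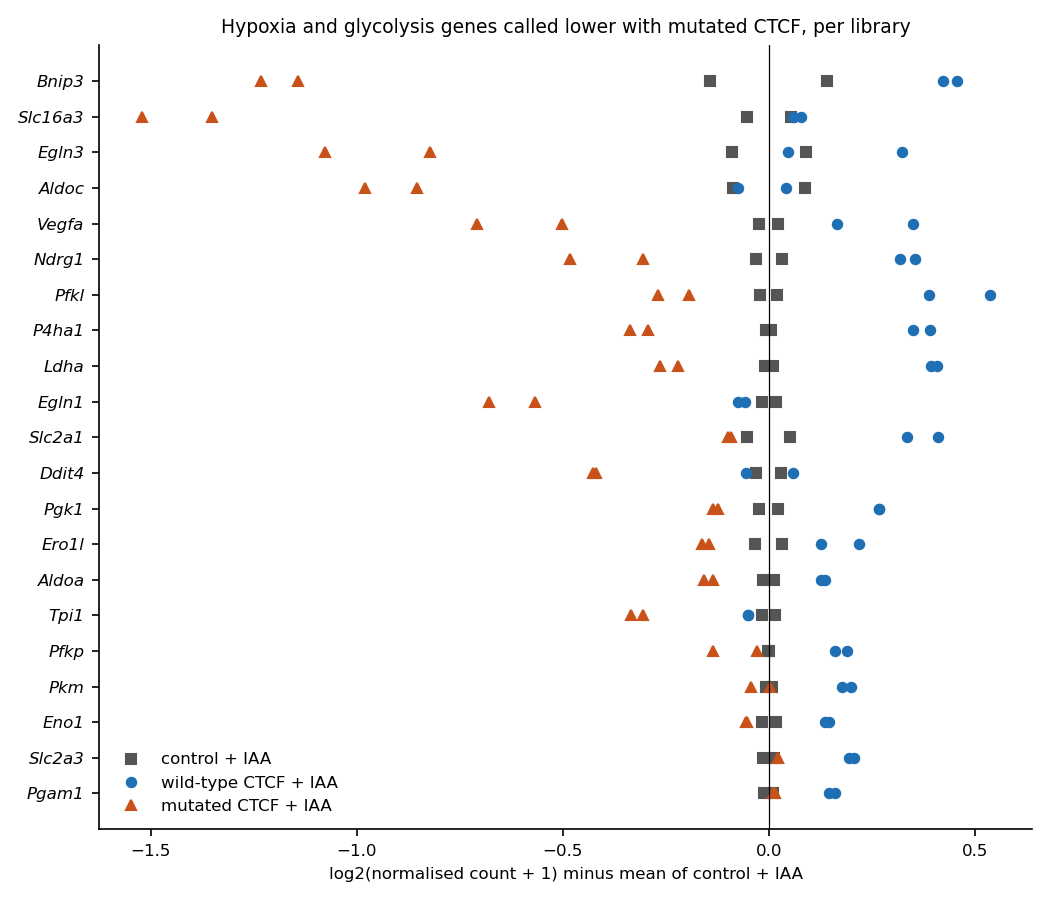
Level of the 21 hypoxia and glycolysis genes called lower with mutated CTCF, as log2(normalised count + 1) minus the mean of control cells with IAA (horizontal axis), 1 symbol per library and 1 row per gene. Both mutated libraries (triangles) lie left of both wild-type libraries (circles) in all 21 genes; the largest gaps are those of Bnip3 and Slc16a3.

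Without IAA, 12 genes of the hypoxia and glycolysis list were called lower and 2 higher with mutated CTCF (Kdm3a and Ak4), and the list's median was -0.14. Of all genes tested, 2.73% were called lower and 3.49% higher in that comparison. All 12 were also called lower with IAA. Slc16a3 was at 275 and 235 normalised counts with wild-type CTCF and at 131 and 123 with mutated CTCF in the absence of IAA, a log2 difference of -0.998. Bnip3 was at 762 and 721 against 507 and 577 (log2 difference -0.45), and Ldha at 8507 and 8673 against 7618 and 7604 (log2 difference -0.17). The test of the difference between the comparisons, an interaction term in the same fit, called 8 genes of the list, all more negative with IAA. A negative interaction was called for 0.538% of all genes. For Bnip3 the interaction was -1.17, for Ldha -0.47 and for Slc2a1 -0.53.

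Cholesterol synthesis is a pathway whose enzymes are raised together when sterols are scarce. Of 24 genes tested 6 were called lower and 0 higher (25.0%, against 2.25% of all genes). The median was -0.15, and 23 of 24 differences were negative. Hmgcs1, a synthase early in the pathway, was at 14046 and 13706 with wild-type CTCF and IAA and at 12123 and 12259 with mutated CTCF and IAA (log2 difference -0.19). The enzymes Dhcr7 (-0.28), Lss (-0.23) and Nsdhl (-0.21) and the regulator Insig1 (-0.19) were also among those called lower. Without IAA the list had 14 genes called lower, against 2.73% of all genes, with a median of -0.24. The median interaction of the list was 0.09, against 0.001 over all genes. In control cells 15 of the 24 were called lower with IAA, against 12.5% of all genes, with a median of -0.29. With IAA, 7 genes of this list were called lower than in control cells where the added CTCF was wild-type, and 17 where it was mutated. Over all genes these shares were 2.27% and 2.34%. These counts share the control libraries.

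The integrated stress response raises amino acid synthesis and transport when translation is restrained. Of its 23 genes, 4 were called lower and 0 higher (17.4%, against 2.25% of all genes). These were the secreted Stc2 (-0.92), Ddit4, the serine synthesis enzyme Phgdh (-0.25) and the transporter subunit Slc3a2 (-0.19). Atf4, its main transcription factor, had a log2 difference of -0.04 (limma adjusted p 0.635). Without IAA, 10 genes of this list were called lower, against 2.73% of all genes.

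Transcripts of the mitochondrial respiratory chain went in both directions. In this list 11.4% of genes were called, against 2.25% of all genes. Of 44 genes tested, mt-Nd1 (0.15) and Cox5a (0.15) were called higher and mt-Co1 (-0.21), mt-Nd4 (-0.12) and mt-Cytb (-0.13) lower. The enzyme subunit mt-Co1 was at 224595 and 224326 with wild-type CTCF and IAA and at 195889 and 192831 with mutated CTCF and IAA. Without IAA its order was the opposite, 192753 and 188527 against 242132 and 246841. Of the 9 mitochondrially encoded genes, 6 were called higher with mutated CTCF without IAA, against 3.49% of all genes, and the median over the 9 was 0.45. The interaction was called negative for 6 of the 9, against 0.538% of all genes. The library share of mitochondrially encoded genes moved the same way, 2.27% and 2.39% with wild-type CTCF and 2.84% and 3.08% with mutated CTCF without IAA. Its part in these results was not tested. mt-Nd4 shares annotated bases with mt-Nd4l.

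Signalling genes gave a few large differences. In the BMP and Nodal list, 4 of 30 genes were called lower and 0 higher, against 1.18% and 1.08% of all genes. Lefty2, a secreted inhibitor of Nodal, was at 2576 and 2502 with wild-type CTCF and IAA and at 1564 and 1543 with mutated CTCF and IAA (log2 difference -0.71, SE 0.05, limma adjusted p 5.00e-05). All other libraries of the table had Lefty2 between 1797 and 1997, so the wild-type libraries with IAA were the highest and the mutated ones the lowest of the 12. Fst, an inhibitor of activin, was at 79.6 and 79.2 against 36.5 and 41.5 (log2 difference -1.01). The BMP target Id4 (-0.58) and the Nodal co-receptor Tdgf1 (-0.17) were the others.

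In the Wnt list 2 of 33 genes were called higher and 2 lower, against 1.08% and 1.18% of all genes. Dkk1 (ENSMUSG00000024868.8, chromosome 19, 30545863 to 30549665, minus strand), a secreted Wnt inhibitor, was at 67.6 and 50.5 with wild-type CTCF and IAA, at 127 and 150.1 with mutated CTCF and IAA and at 182 and 198 in control cells with IAA, whereas the 6 libraries without IAA lay between 11.4 and 16.2. Its log2 difference was 1.23 (SE 0.23, limma adjusted p 0.0243). Sfrp2, another secreted Wnt antagonist, was higher (0.43), and Dkk3 (-0.62) and the receptor Fzd7 (-0.42) were lower. Of 24 genes in the FGF and ERK list, the feedback inhibitor Il17rd was higher (0.28) and the transcription factor Etv5 lower (-0.17). Stat2 (-0.57), which carries interferon signals to the nucleus, was the 1 called gene of 20 in the interferon list.

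Among pluripotency genes most differences were small. The naive list had 3 of 16 genes called higher and 2 lower, against 1.08% and 1.18% of all genes. Dppa3 (ENSMUSG00000046323.8, chromosome 6, 122626410 to 122630272, plus strand), a maternal factor that limits DNA methylation, was at 354 and 350.1 with wild-type CTCF and IAA and at 826 and 765 with mutated CTCF and IAA, 226% of the wild-type level (log2 difference 1.17, SE 0.10, limma adjusted p 0.000322). It was at 938 and 951 in control cells with IAA, above both groups, and at 376 and 363 in control cells without. The transcription factor Tfcp2l1 (0.08) and Fbxo15 (0.21) were higher, and Klf5 (-0.28) and Dppa5a (-0.10), which has near-identical copies, were lower. Nanog had a log2 difference of 0.01 (limma adjusted p 0.884). In the core and formative list of 12, Dnmt3b was higher (0.23) and Sox2 lower (-0.28). Sox2 was at 7496 and 7156 with wild-type CTCF and IAA, at 5967 and 6075 with mutated CTCF and IAA and at 5948 and 5781 in control cells with IAA. Pou5f1 had a log2 difference of -0.03 (limma adjusted p 0.645).

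Genes of DNA methylation and of the germline were higher where they were called. Over all genes 1.08% were called higher. Of 18 methylation genes, Dnmt3l (1.54), a cofactor of the de novo methyltransferases, Dnmt3b and Zfp57 (0.21), which guards methylation at imprints, were called higher. Dnmt3l was low, at 9.24 and 12.8 against 29.9 and 37.5, and overlaps Aire on the opposite strand. Of 15 germline genes silenced in stem cells, the meiosis gene Stra8 (0.92) and the RNA-binding Dazl (0.31) were called higher. Stra8 was at 294 and 252 with wild-type CTCF and IAA, at 452 and 588 with mutated CTCF and IAA and at 639.7 and 682 in control cells with IAA. In both genes the wild-type libraries were the lowest of the 3 treated groups.

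Lineage markers were called in few cases. Over all genes 2.25% were called. Pdgfra, a growth factor receptor and a marker of primitive endoderm, was at 50.4 and 32.9 with wild-type CTCF and IAA and at 130.2 and 172 with mutated CTCF and IAA (log2 difference 1.85, SE 0.37, limma adjusted p 0.0320). It was the 1 called gene of 10 in the primitive endoderm list, whose median was -0.09 and in which 7 differences were negative. Of 10 neural genes 2 were called higher and 1 lower, with 6 of 10 differences negative, a median of -0.04 and a range of -1.69 to 0.38. The higher ones were Tubb3 (0.38) and Nefl (0.31). In the mesoderm list of 8, Lefty2 was the called gene. No gene was called in the lists for trophoblast (8 tested), fibroblasts (3) or the 2-cell-like state (2) in limma. At an unadjusted p under 0.05, 1 trophoblast gene was higher and 2 were lower, and 0 genes of the other lists named here passed. Of all 13938 genes, 2212 passed that threshold in either direction.

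In each of the remaining lists at most 3 genes were called. Over all genes 1.08% were called higher and 1.18% lower. Besides Cyp1a1, Nqo1 (0.20) was called higher among 10 aryl hydrocarbon receptor targets. Cyp1b1, another target of that receptor, was at 59.7 and 56.3 against 122 and 124 (log2 difference 1.07, limma adjusted p 0.146). The p53 targets Ccng1 (0.19) and Trp53inp1 (0.20) were higher among 21, and 19 of 21 differences were positive. Of 15 genes of antigen presentation the chaperone Calr (0.18) was higher and H2-Q2 lower, at 18.9 and 17.4 against 3.39 and 2.45, with near-identical relatives in its locus. Among 40 imprinted genes Peg3 (0.26) was higher, and Gnas (-0.25) and Cd81 (-0.19) were lower. In the NuRD list of 16 Rbbp4 (0.10) was higher and Mta3 (-0.23) lower, and Nek2 (0.20) was the 1 called gene of 25 in G2/M. None was called among 56 cytosolic ribosomal proteins, 22 genes of CTCF and cohesin, 19 collagens and laminins or 11 Hox genes in limma. At an unadjusted p under 0.05, 13 ribosomal proteins were higher, 5 genes of CTCF and cohesin were higher and 1 was lower, 4 collagens or laminins were lower, and 0 Hox genes passed. At that threshold 2212 of all 13938 genes passed in either direction.

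**Figure D3:**
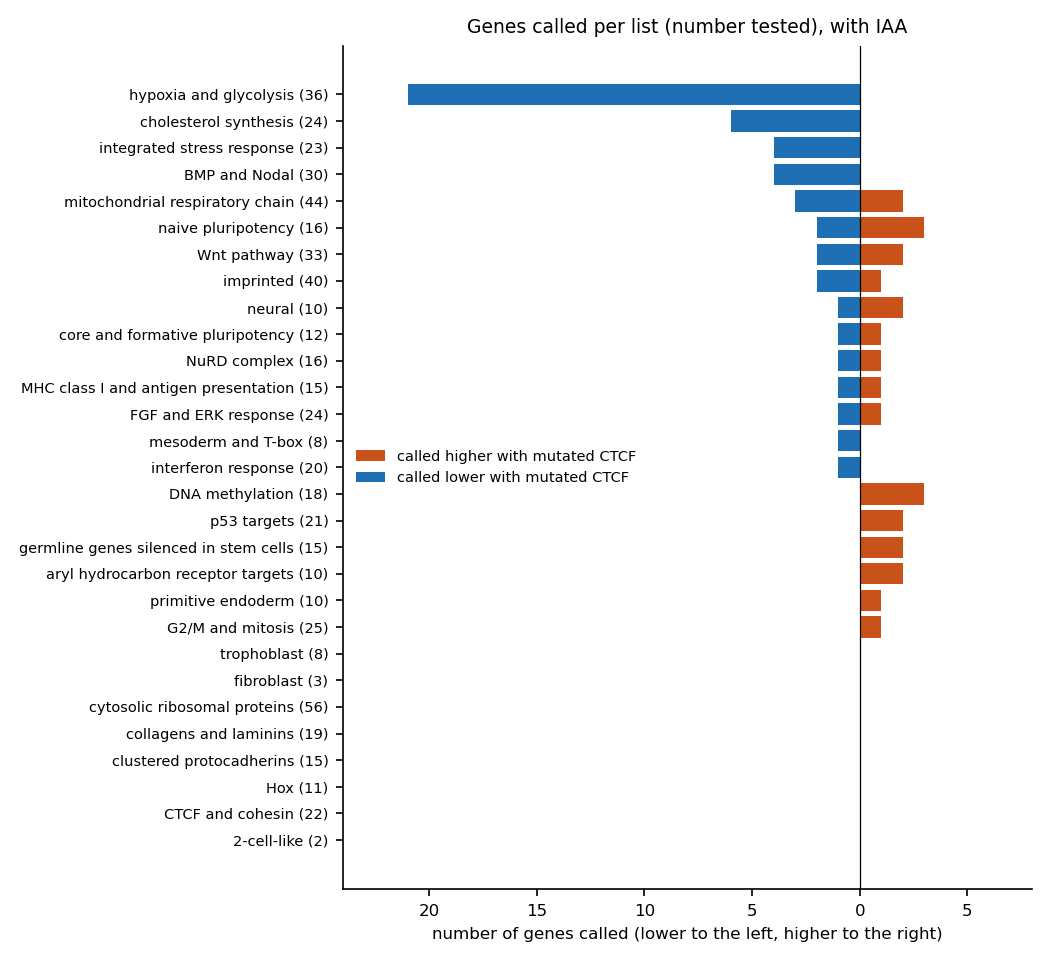
Number of genes called lower (left, blue) and higher (right, orange) with mutated CTCF and IAA in each of 29 lists (rows), with the number of genes tested in parentheses. Hypoxia and glycolysis has 21 genes called lower and cholesterol synthesis 6. A gene that is in more than 1 list is counted in each. The lists were chosen with earlier results of these data known.

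Outside the lists, further genes with means of at least 100 had large differences. Nkx6-2, a homeobox factor, was at 89.8 and 77.1 with wild-type CTCF and IAA and at 216 and 229.6 with mutated CTCF and IAA (log2 difference 1.41, SE 0.17, limma adjusted p 0.00287). Slco5a1, a membrane transporter, was at 383 and 409 against 739 and 825 (log2 difference 0.98), and Map1a, a microtubule-associated protein, at 944 and 904 against 1421 and 1802 (log2 difference 0.79). Nkx6-2 and Map1a overlap genes on the opposite strand. Glod5 (1.35), the inflammasome-family gene Nlrp4c (0.97), which has close relatives, the somatostatin receptor Sstr2 (0.85) and the kinase subunit Pik3r3 (0.82), which overlaps Gm49337, were also higher.

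Of the genes with the largest falls, Atp8a1 (ENSMUSG00000037685.15, chromosome 5, 67618140 to 67847434, minus strand), a flippase that moves phospholipids across membranes, was at 293 and 244 with wild-type CTCF and IAA and at 83.6 and 94.8 with mutated CTCF and IAA (log2 difference -1.58, SE 0.17, limma adjusted p 0.00133). In control cells with IAA it was at 120 and 96.6, against 374 and 294 without. A2m, a protease inhibitor, was at 342 and 316 against 175 and 153 (log2 difference -1.004), and Iqgap2, a scaffold protein, at 331 and 504 against 206.0 and 206.3 (log2 difference -0.98). The adhesion molecule Ceacam1 (-1.25), the kinase Mapk4 (-1.24), the reductase Akr1e1 (-1.18), the membrane protein Prrg1 (-1.17), the matrix protein Tgfbi (-1.14) and the coactivator Ncoa7 (-1.04) were lower as well. Akr1e1 was the one of these with the opposite sign without IAA, 0.63 (limma adjusted p 0.172). Atp8a1 overlaps Shisa3, and Ncoa7 overlaps Hint3.

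The called genes were then set beside the response of control cells to IAA, which shares no library with the comparison. Both come from the same fit and use the same estimate of a gene's spread. A gene with a small spread is therefore more easily called in both. In control cells limma called 25.3% of all genes between IAA and no IAA, 12.8% higher and 12.5% lower. Of the 150 genes higher with mutated than with wild-type CTCF, 103 were called higher with IAA in control cells (68.7%) and 15 lower. Of the 164 lower with mutated CTCF, 87 were called lower with IAA in control cells (53.05%) and 13 higher. Dppa3, Dkk1, Slco5a1 and Stra8 rose in control cells, and Atp8a1, Iqgap2, Ceacam1 and Tgfbi fell. Against control cells with IAA, 61 of the 150 genes were called lower with wild-type CTCF and 48 called higher with mutated CTCF. Of the 164 lower genes, 61 were called higher with wild-type CTCF and 67 called lower with mutated CTCF, and for 7 both held. Over all genes, 3.98% were called higher and 2.27% lower with wild-type CTCF than in the treated controls, and 4.16% higher and 2.34% lower with mutated CTCF. These counts are a description only, since the genes were chosen by the same wild-type and mutated libraries, which favours these directions, and the control libraries are shared.

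**Figure D4:**
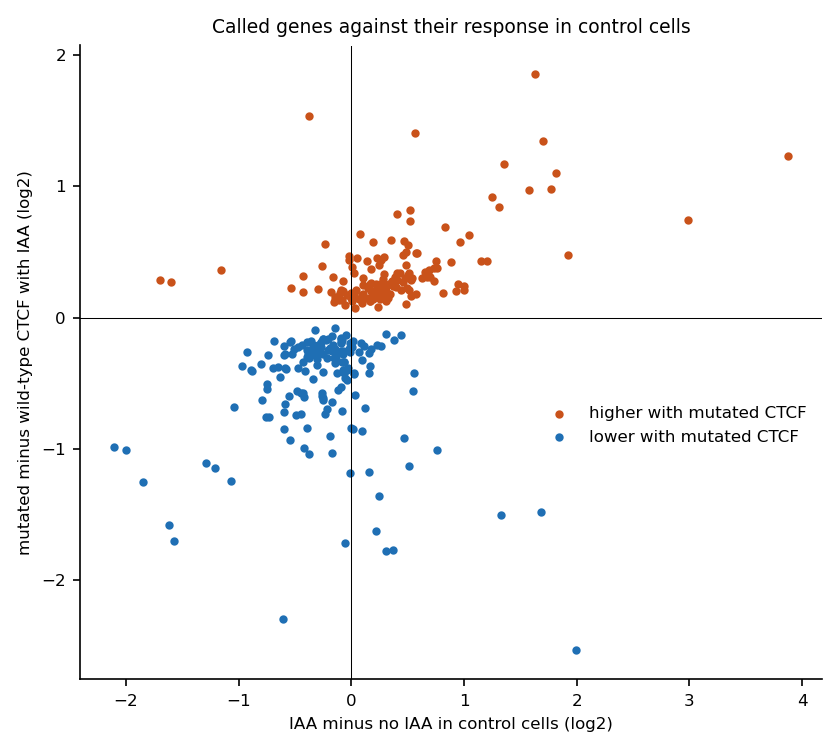
Log2 difference of mutated minus wild-type CTCF with IAA (vertical axis) against the log2 difference of IAA minus no IAA in control cells (horizontal axis) for the 314 called genes, 1 point per gene. Of 150 genes above 0 on the vertical axis, 103 were called higher with IAA in control cells, and of 164 below it, 87 were called lower. The 32 and 64 genes not called in control cells are plotted too.

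In a separate table of the same series, CTCF AID cells without added CTCF were treated with IAA for 12 h. Genes that changed most there were taken as lists, in which effects of CTCF loss and of IAA itself cannot be told apart. Of the genes tested in both tables, 9.59% were called higher and 8.42% lower there. Of 410 genes that were called and at least 2-fold lower there, 4 were called higher and 10 lower in the contrast of mutated and wild-type CTCF. That is 3.41%, against 2.25% of all genes, and the median was -0.003. The same genes had a median of -0.68 for IAA in control cells. Against control cells with IAA, 121 of them were called higher with wild-type CTCF (median 0.39) and 110 with mutated CTCF (median 0.30), and these counts share the control libraries. Over all genes 3.98% and 4.16% were called higher in these comparisons. Of 169 genes called and at least 2-fold higher after degradation, 13 were called higher and 1 lower with mutated CTCF. That is 8.28%, against 2.25% of all genes, and the median was 0.10. The median effect of IAA on them was 0.86 in the controls, 0.44 where wild-type CTCF was added and 0.52 where the mutated form was. Nkx6-2, Glod5, Dkk1 and Dppa3 had the largest rises among called genes of these lists with mutated CTCF and a symbol that is not provisional, and H2-Q2, Ceacam1, Egln3 and Fignl2 (-1.11) the largest falls. For the cohesin subunit RAD21, degraded for 12 h in other cells, 6.93% of shared genes were called higher and 6.64% lower. In the contrast of mutated and wild-type CTCF under IAA, the 905 genes higher without RAD21 had a median of 0.01. Of them 24 were called higher and 34 lower (6.41%, against 2.25% of all genes). The 868 lower ones had a median of -0.004, with 19 called higher and 29 lower (5.53%).

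The clustered protocadherins, adhesion molecules of neurons whose promoters are chosen through CTCF-bound enhancers, were lowest in control cells with IAA. Of 58 genes 15 were tested, and none was called when mutated was compared with wild-type CTCF under IAA. The median was -0.05, with single values from -1.10 to 1.59. At an unadjusted p under 0.05, 1 was lower and 0 higher, and 2212 of all 13938 genes passed in either direction. In control cells 11 of the 15 were called lower with IAA, against 12.5% of all genes, and the median of the 15 was -2.43. Pcdhga1 was at 62.8 and 43.6 in control cells, at 6.72 and 5.46 in control cells with IAA, at 33.0 and 42.5 with wild-type CTCF and IAA and at 38.1 and 40.5 with mutated CTCF and IAA. Both groups with added CTCF were above the treated controls, and they overlapped each other. At these low values a difference between them could be detected only if large, as the SE of 0.28 for Pcdhga1 on the log2 scale shows.

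Mutated and wild-type CTCF were also compared without IAA, in 4 other libraries. There limma called 868 genes (6.23%), 487 higher and 381 lower with mutated CTCF. Of the 314 genes called with IAA, 271 had the same sign without it (86.3%, exact Clopper-Pearson 95% interval 82.0% to 89.9%, which treats genes as independent), against 59.5% of all genes tested. The genes called in both numbered 140, which is 44.6% of those called with IAA and 16.1% of those called without. Across the 314 genes the log2 differences with and without IAA correlated with r of 0.757, and across all genes with r of 0.178. These are descriptions across genes, which are not independent. The 2 comparisons share no library but use the same estimate of a gene's spread, so a gene with a small spread is more easily called in both. They also compare the same 2 kinds of cells. A difference between these cells that does not depend on IAA would enter both. Dppa3 (0.72 without IAA), Nkx6-2 (0.70), Tubb3 (0.61), Slc16a3 (-0.998) and Tgfbi (-1.24) were called in both. Pdgfra (0.04 without IAA), Dkk1 (0.08) and Lefty2 (-0.01) had values near 0 without IAA.

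**Figure D5:**
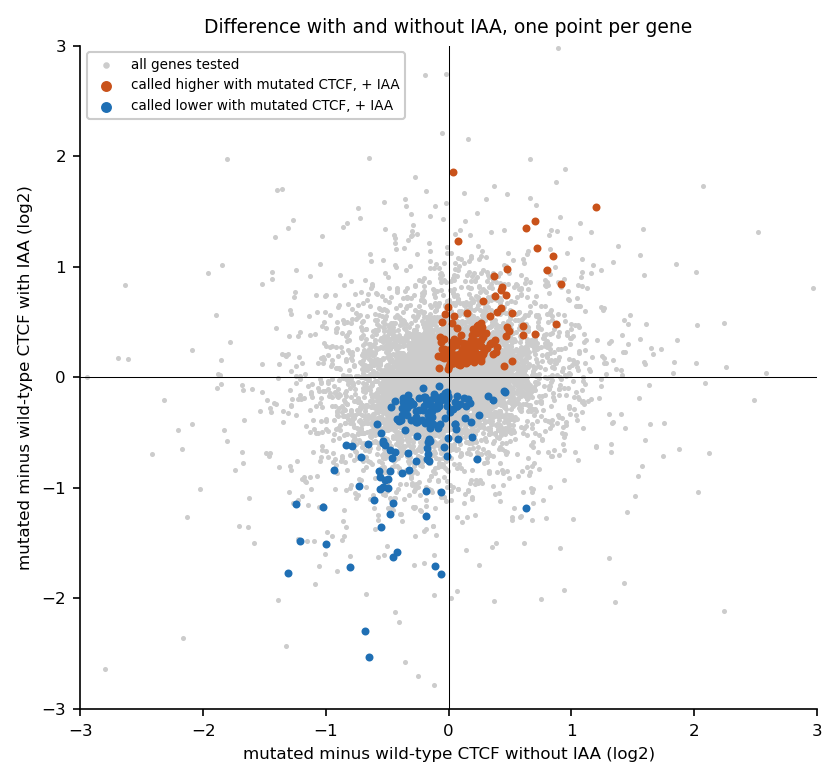
Log2 difference of mutated minus wild-type CTCF with IAA (vertical axis) against the same difference without IAA (horizontal axis), 1 point per gene, with the 314 called genes in colour. The axes end at 3 in either direction and leave out 15 genes, none of them called; 271 of the 314 coloured genes lie in the 2 quadrants of equal sign.

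The difference between the comparisons was itself tested for every gene. The interaction was called for 94 genes (0.674%), positive for 19 (0.136%) and negative for 75 (0.538%), where positive means a higher value of mutated minus wild-type with IAA than without. Lefty2 had an interaction of -0.69, Sox2 of -0.32 and Bnip3 of -1.17. Zfp566, a zinc finger gene, was at 153 and 176 with wild-type and 294 and 383 with mutated CTCF without IAA, and at 315 and 401 with wild-type and 199 and 246 with mutated CTCF with IAA, an interaction of -1.71. Ddx58, a sensor of viral RNA, had -0.93. Among called interactions of genes with a symbol that is not provisional, the largest positive values at means of at least 100 were 0.47 for Prkaa2, a catalytic subunit of the energy sensor AMPK, 0.44 for Erlin1, 0.43 for Galnt2 and 0.40 for Ctsc.

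The called genes were spread over the genome. The share called lay between 1.61% and 2.96% on the 20 chromosomes with at least 100 genes tested, and chromosome medians lay between -0.01 and 0.01. Of the 314 genes, 6 had a neighbouring tested gene called with the same sign (1.91%). A neighbour on either side was counted, and 1.08% of all genes were called higher and 1.18% lower. Among the pairs were Tbc1d8 with Cnot11 on chromosome 1, which were higher, and Fam57b with Aldoa on chromosome 7, which were lower. Fam57b and Aldoa lie on opposite strands with starts 3.08 kb apart and overlap, so their reads could be mixed. A short core that resembles the CTCF binding sequence, AGGNGGC on either strand, occurred within the 300 promoter bases of 66 of 120 genes called higher (55.0%), of 18 of 32 genes of the hypoxia and glycolysis list (56.3%), and of 9643 of all 32851 promoters (29.4%). No share was taken for the genes called lower or for all genes tested, since fewer of them had a promoter in the table (121 of 164 and 10299 of 13938), so the share among expressed genes was not set beside these. The sets are again counted by gene, which can have several promoters, and the share over the table by single promoter. This motif is shorter than the full CTCF site, and a match describes letters only.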

How the data were processed

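The deposited values are normalised counts, a signal that is never negative, in tables made by the authors. The submitters' processing notes name Trim Galore, Bowtie2, STAR, RSEM, DESeq2 and mm10, without roles. The annotation, the strand setting and the rule for listing genes are not given in the sources used here. Values were not whole multiples of a step, so no count test was run, and depth is known only through the library totals. Columns were assigned by title, with 0 left unmapped.

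In R 4.3.3, limma 3.58.1 was run on log2(value + 1) for genes whose mean reached 10 in the 12 libraries (6 groups, eBayes with a mean trend, Benjamini-Hochberg adjustment over 13938 genes), and summaries were made in Python 3.11.15. The code was tested on simulated data. A log2 difference on this scale understates the change of low genes. Tables of CTCF and RAD21 degradation were normalised separately and served only to define gene lists. Positions come from GENCODE M21 on GRCm38 (13930 genes matched), and promoters from RefSeq on GRCm38.p6 (10299 of the genes tested). The 29 lists and the members were chosen with earlier results of these data known. Named genes were the 12 largest called differences per direction with non-overlapping libraries, 100 or more as the mean of the higher group and a symbol that is not provisional, Ctcf, the called list members, the 4 largest called interactions per direction, and the 4 largest called differences per direction in the list of CTCF degradation. Other named genes serve as context, and a few genes that met the rule are not reported here. Alternatives changed the pseudocount, the filter, the scaling, the trend, the samples in the fit, the replicate block and single libraries.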

Additional observations from a re-analysis of the deposited data

Results flagged for a closer look

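For 24 named genes the difference of mutated minus wild-type CTCF was not the same with and without IAA by the interaction test in limma (adjusted p under 0.05). Values are log2 interactions, and a negative value means a lower difference with IAA. Among hypoxia and glycolysis genes these were Bnip3 (-1.17), Pfkl (-0.53), Slc2a1 (-0.53), Ldha (-0.47), Pfkp (-0.40), Pgk1 (-0.23), Pkm (-0.19) and Eno1 (-0.18). The mitochondrially encoded mt-Cytb (-0.60), mt-Co1 (-0.57), mt-Nd4 (-0.57) and mt-Nd1 (-0.37) also had negative values. Lefty2 (-0.69) and Sox2 (-0.32) were negative, and Tfcp2l1 (0.16), Ccng1 (0.28) and Hmgcs1 (0.19) were positive.

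Among the genes named for the size of the interaction, Zfp566 (-1.71), Ddx58 (-0.93) and Mir17hg (-0.78) were negative and Prkaa2 (0.47), Erlin1 (0.44), Galnt2 (0.43) and Ctsc (0.40) positive. Mir17hg, the host transcript of a microRNA cluster, was at 802 and 660.3 with wild-type and 689 and 713 with mutated CTCF with IAA, and at 569 and 518 against 894 and 904 without IAA. Every interaction rests on all 4 libraries whose treatment label disagrees with the title, those titled as mutated CTCF without IAA and as wild-type CTCF with IAA. Cyp1a1 followed the titles in these libraries.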

How the results depend on the processing

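The count of 314 genes called with IAA was 92 without a mean trend in eBayes, 91 with only the compared groups in the fit, and 29 with a 2-fold difference asked as well. Leaving out 1 library gave 66 to 91. The lone library of a group is then assumed to vary like the other groups. Quantile normalisation gave 250, and leaving out the libraries titled as mutated CTCF without IAA gave 211 (chosen after seeing the data). The 868 genes called without IAA became 427, 216 and 50 under the first 3 alternatives and 360 to 479 with a library left out. The 94 interactions became 5 without a trend and 2 with the 2-fold threshold, and 35 to 59 with a library left out. The 300 genes at least 2-fold apart, untested, were 90 with a pseudocount of 10, 28 with a mean of at least 100 and 367 to 466 with a library left out.

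The median of genes lower after CTCF degradation was -0.0328 to 0.0242 with a library left out. That of genes higher after degradation was 0.0866 to 0.14, and 0.0283 when the list was called by adjusted p alone. The share of called genes with the same sign without IAA was 78.2% to 92.4%, the largest chromosome median 0.000442 to 0.017, and the called genes with a neighbour numbered 10 with a mean of at least 100. With quantile normalisation the integrated stress response had 2 genes called lower in place of 4, the naive list 1 lower in place of 2, and the p53 and Wnt lists 1 higher in place of 2. The genes called higher in the core, NuRD, G2/M and respiratory chain lists were then 0, and 1 ribosomal protein was called higher and 1 collagen or laminin lower. The 21 hypoxia and glycolysis genes were 3 with a 2-fold difference asked as well and 15 to 21 under the other alternatives run. Of 90 named genes called with IAA, 16 lost the call with quantile normalisation, 56 without a trend, 48 with only the compared groups in the fit and 49 to 58 with a library left out. None changed sign. For Mir17hg, whose difference with IAA was not called (-0.0548), leaving out a library gave -0.195 to 0.0852, the latter without the first wild-type library with IAA.

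Replicate numbers do not pair these samples: the labels name no shared batch, and same-numbered libraries had deviations correlated at -0.026 with IAA. With the replicate number as a block, 245 genes were called with IAA, 866 without, and 82 interactions. The depth of the libraries is not known, and 2 libraries per group limit the precision of every value.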
